A study of Homo sapiens with 8 samples.

Results

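Aminoacyl-tRNA synthetases are the enzymes that attach each amino acid to its tRNA, and their mRNAs were followed in N/TERT cells after poisoning of the mitochondria. The genes were chosen by name, with earlier results of these data known, and 40 of the 61806 genes in the count table were taken. They are 20 synthetases of the cytosol, 16 synthetases of the mitochondria, the 3 scaffold proteins AIMP1, AIMP2 and EEF1E1 of the multisynthetase complex, and XPOT, the export receptor that carries tRNA out of the nucleus. Each of the 40 symbols matched 1 gene, and all 40 were expressed highly enough to be tested.

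N/TERT cells (N/TERT-1) are an immortalized line of human epidermal keratinocytes, and both groups were wild type. The control group was 4 libraries of cells given ethanol, the solvent. The other group was 4 libraries of cells given O/A, which is oligomycin, an inhibitor of the mitochondrial ATP synthase, together with antimycin A, which blocks electron transfer at complex III. Treatment before mRNA sequencing lasted 4 hours. In imaging of these cells oligomycin was used at 10 µM and antimycin A at 4 µM, and the sample labels carry neither a dose nor a time. The 4 libraries of a group are labelled as biological replicates, and the agents were given together, so what each did alone cannot be told apart. Total counts were 17210404 to 20999927 per library in ethanol and 17689760 to 19263046 in O/A.

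The cells carried the markers of their label. Summed over 7 basal keratinocyte markers, FPKM (fragments counted on a gene, divided by its exonic length and the library total) spanned 3880 to 4140 with ethanol and 3430 to 3590 with O/A. Over 7 fibroblast markers it was 2.42 to 2.95 and 2.46 to 2.70, and over 5 melanocyte markers 1.35 to 1.81 and 1.25 to 1.71. Of the melanocyte genes, MLANA and TYR had 0 counts in all 8 libraries. MITF had 139 to 168 counts with ethanol and 128 to 147 with O/A. Summed over 3 leukocyte markers, FPKM was 0.40 to 0.59 and 0.65 to 0.88. Of these, CD68 had a log2(FC) of 0.56 while PTPRC and CD3E had 0 to 1 counts in every library. Of the 7 keratinocyte genes, KRT5 and SFN fell by 0.30 and 0.28 on the log2 scale, and the other 5 were not called, from -0.09 for KRT14 to 0.24 for LAMB3. Chi-square comparisons of counts within a condition gave 1.76 to 5.74 for each degree of freedom (11727 genes), more than sampling noise, and no library was treated as a copy.

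A cell keeps separate sets of these enzymes. The cytosolic set charges the tRNAs that translate nuclear mRNAs, and the mitochondrial set, also encoded in the nucleus, charges the tRNAs made from mitochondrial DNA. Most amino acids therefore have 2 synthetase genes, while KARS1 and GARS1 each supply both compartments from 1 gene. The enzymes fall into class I and class II by the fold of their catalytic domain. In animals several cytosolic synthetases are held with the scaffold proteins in the multisynthetase complex, and others are free. Several synthetase genes are known targets of ATF4, a transcription factor that is translated during the integrated stress response and binds the C/EBP-ATF response element.

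Among the synthetases called as changed in O/A, all but 1 of the cytosolic genes rose and all of the mitochondrial genes fell. GARS1, which rose, and KARS1 supply both compartments and are counted here as cytosolic. Of the 20 cytosolic synthetases, 11 were upregulated, 1 was downregulated and 8 were not called, with a median log2(FC) of 0.58. Of the 16 mitochondrial synthetases, 0 were upregulated, 6 were downregulated and 10 were not called, with a median log2(FC) of -0.16. A gene was called when edgeR's quasi-likelihood test, adjusted over the 14893 genes tested, gave p at or under 0.05 and the log2(FC) was beyond 0.25 in either direction. Over all genes tested, 34.7% were called, 15.8% upregulated and 18.9% downregulated, and the median log2(FC) was 0.00. The upregulated share was 55% of the cytosolic synthetases, and the downregulated share was 37.5% of the mitochondrial ones. These are mRNA levels of a bulk culture, in which fewer expressing cells and less mRNA per cell cannot be told apart.

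**Figure D1:**
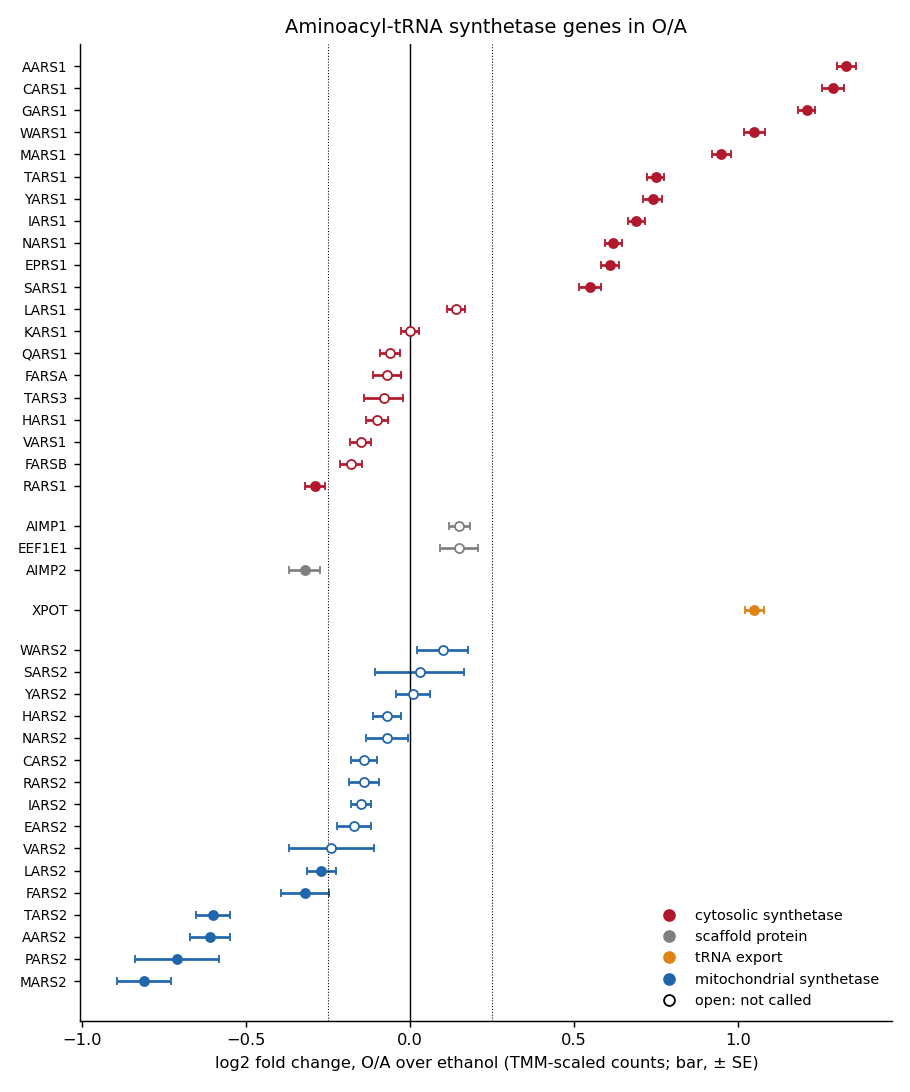
The log2(FC) of O/A over ethanol (x axis, TMM-scaled counts, bars ± SE) is plotted for each of the 40 genes, with filled points for called genes, open points for the others and dotted lines at the threshold of 0.25. The 11 upregulated cytosolic synthetases lie between 0.55 and 1.33, and none of the 16 mitochondrial synthetases lies above 0.10. GARS1 and KARS1, of both compartments, are drawn as cytosolic.

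AARS1, the cytosolic alanine enzyme (chromosome 16 from 70251983 to 70289707), had the highest log2(FC) of the 40 genes. Its FPKM was 14.6, 14.0, 14.0 and 13.8 in ethanol replicates 1 to 4 and 35.0, 34.0, 35.3 and 33.0 in O/A replicates 1 to 4. The groups lay far apart, and the fold change was 2.51 (log2(FC) 1.33, SE 0.029, adjusted p = 6.9e-39 by the edgeR test). CARS1, the cysteine enzyme (chromosome 11 from 3000922 to 3057613), had an FPKM of 8.09, 8.05, 8.01 and 7.70 in ethanol and 19.4, 18.5, 19.8 and 17.9 in O/A. Every O/A library again held more than 2 times the level of any ethanol library, and the log2(FC) was 1.29 (SE 0.0333, adjusted p = 1.07e-35). GARS1, the glycine enzyme of both compartments (chromosome 7 from 30580533 to 30634033), had an FPKM of 18.2, 18.1, 17.9 and 17.4 in ethanol and 41.8, 40.2, 38.9 and 39.2 in O/A. No library of one group came near the other, at a log2(FC) of 1.21 (SE 0.0266, adjusted p = 1.2e-38).

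WARS1, the tryptophan enzyme (chromosome 14 from 100333790 to 100376805), was the fourth cytosolic synthetase with a log2(FC) above 1. Its FPKM was 19.6, 18.4, 19.2 and 18.4 in ethanol and 36.6, 37.9, 40.2 and 37.0 in O/A, a log2(FC) of 1.05 (SE 0.0314, adjusted p = 2.65e-32). WARS1 is also known as an interferon-induced gene. With XPOT, 5 of the 40 genes passed a log2(FC) of 1, whereas 2.56% of all genes tested were upregulated by that much.

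The 8 promoters of these genes that hold the response element letters are shown so that the matches can be read beside the changes. RefSeq promoter windows (GRCh38.p14, 250 bases before to 50 after a start) were found for 34 of the 40 genes and not for LARS1, VARS1, YARS1, TARS3, AARS2 and VARS2. The 8-letter motif TGATGNAA, where N is any base, was searched on both strands. Each sequence runs 5′ to 3′ on the strand of its gene, with the match in capitals (TTGCATCA and TTTCATCA are the reverse complement). The AARS1 and CARS1 windows are given from 250 bases before the start to 30 after it, and the others as 60 bases around the match.
AARS1, chr16:70289477-70289756, minus strand: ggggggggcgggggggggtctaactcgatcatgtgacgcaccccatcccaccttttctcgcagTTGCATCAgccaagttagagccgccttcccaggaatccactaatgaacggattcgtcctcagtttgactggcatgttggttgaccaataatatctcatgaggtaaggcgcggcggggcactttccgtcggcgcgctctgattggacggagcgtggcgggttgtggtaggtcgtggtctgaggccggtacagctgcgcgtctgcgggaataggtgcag
CARS1, chr11:3057394-3057673, minus strand: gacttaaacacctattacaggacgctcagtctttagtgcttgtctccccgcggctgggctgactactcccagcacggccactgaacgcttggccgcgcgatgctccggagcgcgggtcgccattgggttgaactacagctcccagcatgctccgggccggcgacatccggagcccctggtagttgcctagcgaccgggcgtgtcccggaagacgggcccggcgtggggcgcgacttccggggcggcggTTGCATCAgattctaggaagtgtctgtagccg
GARS1, chr7:30594819-30594878, plus strand: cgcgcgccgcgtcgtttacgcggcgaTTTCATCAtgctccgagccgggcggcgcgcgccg
MARS1, chr12:57488038-57488097, plus strand: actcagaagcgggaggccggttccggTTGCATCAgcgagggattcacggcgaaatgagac
TARS1, chr5:33440935-33440994, plus strand: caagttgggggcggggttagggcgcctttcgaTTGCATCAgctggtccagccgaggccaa
IARS1, chr9:92293677-92293736, minus strand: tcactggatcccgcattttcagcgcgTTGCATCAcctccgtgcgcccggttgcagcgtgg
NARS1, chr18:57621807-57621866, minus strand: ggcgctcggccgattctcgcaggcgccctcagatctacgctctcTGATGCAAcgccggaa
YARS2, chr12:32756061-32756120, minus strand: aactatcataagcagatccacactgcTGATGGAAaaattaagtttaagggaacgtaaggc

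The letters were found in 7 of the 10 upregulated cytosolic synthetases with a window and in 0 of the 6 that were not upregulated. They were found in 1 of 14 mitochondrial synthetases, YARS2, whose log2(FC) was 0.01, and in 0 of the 4 windows of XPOT and the scaffold proteins. Of all 27305 genes with a window, 4.46% held them, and of all 35116 windows 3.62%, since some genes have several. EPRS1, SARS1 and WARS1 were upregulated and lacked the letters in this window, as did XPOT. The stricter form TGATGCAA stood in 1.08% of all genes with a window (0.866% of windows) and in 6 of the 34, AARS1, CARS1, IARS1, MARS1, NARS1 and TARS1. In GARS1 the variable base differed.

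The match lay close to the RefSeq start in most of these genes. Counted from that start, its first base was at -33 in GARS1, -13 in IARS1, -4 in MARS1, -2 in CARS1, 2 in TARS1 and 14 in NARS1. In AARS1 it was at -187, but only 14 bases inside the gene as the authors' table draws it, since that table starts AARS1 further upstream. In that table the first base of the match lies 14312 bases inside GARS1 and 12619 inside MARS1, so the start of a gene depends on the annotation. A second motif, that of NRF1, a regulator of nuclear genes for mitochondrial proteins, is GCGCA and GCGC with any 1 base between them. Searched on both strands, it overlapped no match of the first motif in these genes. It was in 6.98% of all genes with a window (5.78% of windows), in 7 of the 34, and in 3 of the 14 mitochondrial synthetases (IARS2, MARS2 and PARS2). The rest were 2 of the 10 upregulated cytosolic synthetases (SARS1 and TARS1), 1 of the 6 not upregulated (FARSB), and AIMP2. A match of letters is a description of the sequence, and binding was not measured.

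The other 7 upregulated cytosolic synthetases had a log2(FC) of 0.55 to 0.95. MARS1, the methionine enzyme, was counted 2410 to 2873 times per library with ethanol and 4547 to 4982 times with O/A, which gave a log2(FC) of 0.95 (SE 0.0282). MARS1 overlaps DDIT3, the stress transcription factor CHOP, by 982 bases on the opposite strand, and DDIT3 rose from a range of 241 to 290 counts to one of 3632 to 4269. Whether reads were counted by strand is not given in the sources used here, and the part of DDIT3 reads in the MARS1 result was not tested.

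TARS1, the threonine enzyme, had the highest FPKM of the 20 cytosolic synthetases. It was at 74.0, 74.4, 74.9 and 71.0 in ethanol and at 122, 118, 120 and 118 in O/A, a log2(FC) of 0.75 (SE 0.0258, adjusted p = 4.29e-30). YARS1 (tyrosine) followed at a log2(FC) of 0.74, IARS1 (isoleucine) at 0.69, NARS1 (asparagine) at 0.62, EPRS1 (glutamate and proline, in 1 protein) at 0.61 and SARS1 (serine) at 0.55. In each of these 11 genes every O/A library lay above every ethanol library after scaling. Of all 20 cytosolic synthetases, 12 lay higher in every O/A library and 4 lay lower in every one, against 22.8% and 24.8% of all genes tested. The enzymes that rose charge tRNA with 12 amino acids.

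RARS1, the arginine enzyme (chromosome 5 from 168486451 to 168519301), was the 1 cytosolic synthetase called downregulated. Its FPKM was 57.7, 60.3, 60.8 and 55.5 in ethanol and 47.5, 47.0, 47.1 and 44.4 in O/A. All O/A libraries lay below all ethanol libraries, and RARS1 fell by 0.29 on the log2 scale (SE 0.0304, adjusted p = 1.53e-11), just past the threshold. FARSB, VARS1 and QARS1 also lay lower in every O/A library, but within the fold change threshold.

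The 8 cytosolic synthetases that were not called lay between a log2(FC) of -0.18 for FARSB and 0.14 for LARS1. KARS1, the lysine enzyme of both compartments, was the flattest, with an FPKM of 58.5, 57.4, 58.4 and 55.9 in ethanol and 57.5, 55.6, 54.9 and 55.6 in O/A. After TMM scaling the groups overlapped, and the 95% confidence interval of its log2(FC) ran from -0.05 to 0.06. GARS1, which also serves both compartments, rose, and its interval of 1.15 to 1.26 did not meet that of KARS1. LARS1 (leucine), HARS1 (histidine, -0.10), VARS1 (valine, -0.15) and FARSB (a phenylalanine subunit) passed the adjusted p-value but stayed within the fold change threshold. QARS1 (glutamine, -0.06), FARSA (the partner subunit of FARSB, -0.07) and TARS3 (another threonine enzyme of the cytosol, -0.08) had an adjusted p-value above 0.05. TARS1 and TARS3 charge the same amino acid, and the FPKM of TARS3 was 6.01 to 6.80 with ethanol and 5.33 to 6.65 with O/A.

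**Figure D2:**
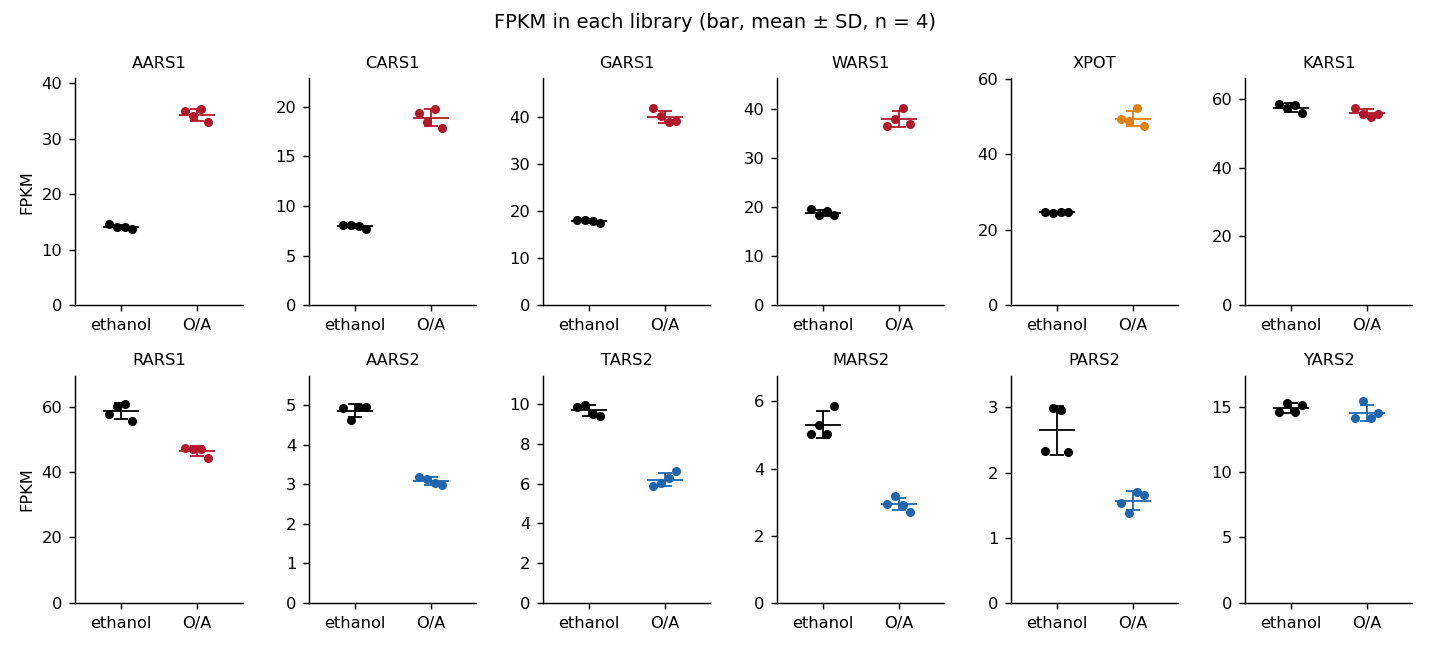
FPKM (y axis, from 0) is plotted in each of the 4 ethanol (black) and 4 O/A (coloured) libraries for 12 of the genes, with bars at the mean ± SD. AARS1, CARS1, GARS1, WARS1 and XPOT lie about 2 times higher in O/A or more, KARS1 and YARS2 lie near their ethanol level, and RARS1, AARS2, TARS2, MARS2 and PARS2 lie below it.

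Enzymes inside and outside the multisynthetase complex were both represented among those that rose. Of the 7 synthetases of the complex, 3 were upregulated (MARS1, IARS1 and EPRS1), 1 was downregulated (RARS1) and the median log2(FC) was 0.14. Of the 13 outside it, 8 were upregulated, 0 were downregulated and the median was 0.62. The 4 genes with a log2(FC) above 1 were all outside the complex. By catalytic class, 5 of 9 class I enzymes and 5 of 10 class II enzymes were upregulated, with medians of 0.69 and 0.28, and EPRS1 holds a domain of each class. Of all genes tested, 15.8% were upregulated and 18.9% downregulated, and the differences between these subsets were not tested.

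None of the scaffold proteins was upregulated. AIMP2 (chromosome 7 from 6009255 to 6023834), which bridges enzymes of the complex, had an FPKM of 29.6, 29.2, 32.4 and 26.8 in ethanol and 23.7, 22.5, 22.5 and 22.9 in O/A. It lay lower in every O/A library and fell by 0.32 on the log2 scale (SE 0.0472, adjusted p = 1.09e-07). AIMP2 overlaps EIF2AK1, a kinase of the initiation factor eIF2, on the opposite strand by 1588 bases, and the counts of EIF2AK1 ranged from 3018 to 3371 with ethanol and from 2784 to 3016 with O/A. AIMP1 and EEF1E1 each had a log2(FC) of 0.15, within the fold change threshold. Both passed the adjusted p-value of the edgeR test (4.56e-05 and 0.0266) and lay higher in every O/A library.

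XPOT (chromosome 12 from 64404392 to 64451125) moved with the most changed enzymes. Its FPKM was 24.6, 24.4, 24.6 and 24.8 in ethanol and 49.4, 48.7, 52.2 and 47.3 in O/A. Every O/A library lay far above every ethanol library, with a log2(FC) of 1.05 (SE 0.0285, adjusted p = 9.75e-35). XPO5, an export receptor that carries microRNA precursors and some tRNA, had a log2(FC) of -0.04.

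Among the mitochondrial synthetases, MARS2, the methionine enzyme (chromosome 2 from 197705369 to 197708395), fell most. Its FPKM was 5.03, 5.30, 5.03 and 5.87 in ethanol and 2.93, 3.18, 2.92 and 2.72 in O/A. The groups were well separated, and MARS2 fell by 0.81 on the log2 scale (SE 0.0823, adjusted p = 3.85e-12). PARS2, the proline enzyme (chromosome 1 from 54756898 to 54764523), had an FPKM of 2.33, 2.99, 2.96 and 2.32 in ethanol and 1.54, 1.38, 1.70 and 1.65 in O/A. Ethanol replicates 2 and 3 were the high ones, all O/A libraries were lower, and PARS2 fell by 0.71 (SE 0.128, adjusted p = 5.4e-06). Its counts were low, 101 to 124 per library with ethanol and 61 to 77 with O/A, and its error was wide.

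AARS2 and TARS2 fell by similar amounts. AARS2, the alanine enzyme (chromosome 6 from 44298731 to 44313347), had an FPKM of 4.94, 4.64, 4.95 and 4.96 in ethanol and 3.20, 3.15, 3.04 and 2.98 in O/A, and it fell by 0.61 (SE 0.0618, adjusted p = 3.56e-12). TARS2, the threonine enzyme (chromosome 1 from 150487414 to 150507602), had an FPKM of 9.84, 9.97, 9.50 and 9.37 in ethanol and 5.86, 6.03, 6.26 and 6.61 in O/A, and it fell by 0.60 (SE 0.0524, adjusted p = 3.78e-14). Neither gene had an O/A library within reach of the ethanol libraries. FARS2, the phenylalanine enzyme, fell by 0.32 (SE 0.0725, adjusted p = 0.000178). LARS2, the leucine enzyme, fell by 0.27 (SE 0.0438, adjusted p = 6.35e-07), and without O/A replicate 2 or O/A replicate 3 its log2(FC) was -0.237 or -0.235, within the threshold.

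The 10 mitochondrial synthetases that were not called had a log2(FC) of -0.24 to 0.10. IARS2 (isoleucine, -0.15), CARS2 (cysteine, -0.14), RARS2 (arginine, -0.14) and EARS2 (glutamate, -0.17) passed the adjusted p-value within the fold change threshold, and lay lower in every O/A library. In all, 10 of the 16 lay lower in every O/A library and 0 lay higher in every one, against 24.8% and 22.8% of all genes tested. YARS2 (tyrosine) had a log2(FC) of 0.01 with a 95% confidence interval of -0.09 to 0.11, and HARS2 (histidine) and NARS2 (asparagine) each had -0.07. SARS2 (serine, 0.03) and VARS2 (valine, -0.24) were the most thinly counted, with 61 to 109 and 62 to 104 counts per library. Their 95% confidence intervals, -0.25 to 0.30 and -0.50 to 0.03, do not exclude a change past the threshold. WARS2 (tryptophan) had the highest value, 0.10, with an interval of -0.06 to 0.26. By class, 4 of 7 class II and 2 of 9 class I mitochondrial enzymes were downregulated, with medians of -0.32 and -0.15. These are 57.1% and 22.2%, against 18.9% of all genes tested, and the difference between the classes was not tested.

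Set against its partner for the same amino acid, the cytosolic enzyme gained on the mitochondrial one in most of 17 pairs. EPRS1 stands in 2 pairs and FARS2 in 2. The cytosolic over mitochondrial ratio was higher in every O/A library than in any ethanol library in 13 pairs, lower in 1 and overlapping in 3. The median difference in log2(FC), cytosolic minus mitochondrial, was 0.73.

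AARS1 and AARS2 parted most, with a difference of 1.94. The ratio of their FPKM was 2.78 to 3.01 with ethanol and 10.8 to 11.6 with O/A. For MARS1 and MARS2 the difference was 1.76, and the ratio went from 3.32 to 4.10 in ethanol to 11.7 to 13.4 in O/A. In these pairs, and in TARS1 and TARS2 (1.35) and EPRS1 and PARS2 (1.32), one partner rose and the other fell. In CARS1 and CARS2 (1.43) and WARS1 and WARS2 (0.95) the cytosolic partner was upregulated, and the mitochondrial partner stayed within the fold change threshold.

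In the 4 exceptions the cytosolic gene was not upregulated. RARS1 and RARS2 differed by -0.15, with an FPKM ratio of 22.3 to 23.7 in ethanol and 20.4 to 21.3 in O/A. The pairs that overlapped were FARSB and FARS2, VARS1 and VARS2, and HARS1 and HARS2. HARS1 and HARS2 lie head to head on chromosome 5, with RefSeq starts 85 bases apart (140691370 and 140691455), and their genes overlap by 108 bases on opposite strands. Their ratio was 0.495 to 0.586 in ethanol and 0.465 to 0.598 in O/A.

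**Figure D3:**
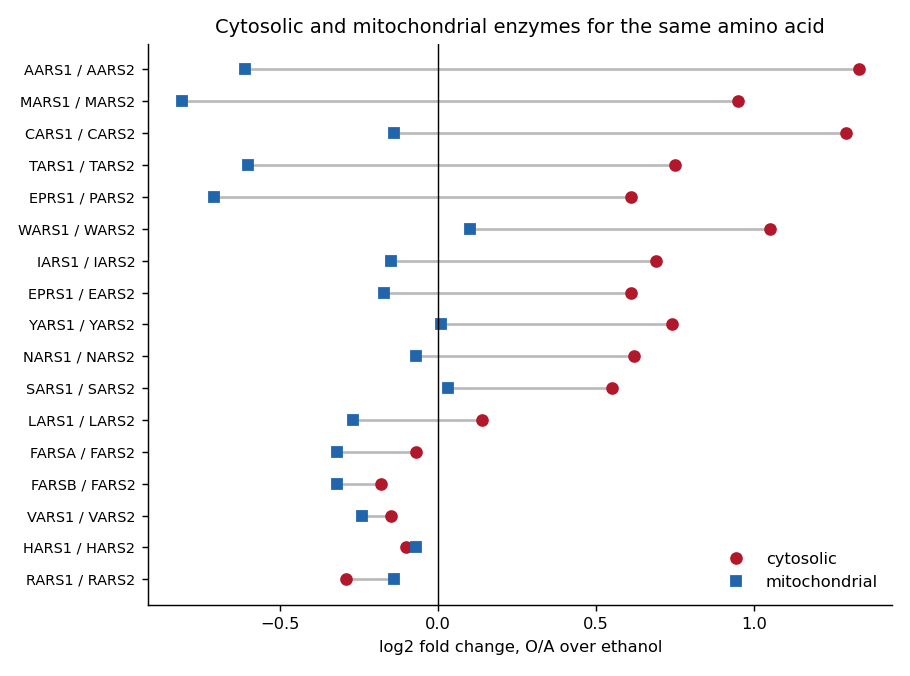
For each of 17 pairs of enzymes for the same amino acid, the log2(FC) of O/A over ethanol (x axis) is drawn for the cytosolic gene (circle) and the mitochondrial gene (square), ordered by their difference. The cytosolic gene lies to the right in 15 pairs, by up to 1.94 in AARS1 and AARS2, and to the left in HARS1 and HARS2 and in RARS1 and RARS2.

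Summed over the 20 cytosolic synthetases, FPKM was 583.6, 579.8, 585.6 and 561.2 in ethanol and 793.4, 773.1, 784.6 and 762.9 in O/A. Over the 16 mitochondrial synthetases it was 137.7, 136.6, 138.4 and 135.7 in ethanol and 118.1, 115.2, 116.6 and 115.6 in O/A. Neither sum overlapped between the groups, and the ratio of the sums went from 4.21 ± 0.0507 to 6.69 ± 0.0606 (SD, n = 4 in each group). TARS1 made up 22.9% of the cytosolic gain, NARS1 15.4%, and GARS1 came next. IARS2 held 39.5% of the mitochondrial sum in ethanol and made up 32.8% of its fall, although its own log2(FC) was within the threshold. TARS2 made up 16.8% and MARS2 11.4%. The exonic lengths behind these FPKM values are those of the authors' table, and they differ widely, for example 22418 bases in IARS1 and 4135 in IARS2. With ethanol IARS1 was counted 5116 to 6198 times per library and IARS2 3863 to 4530 times, yet the FPKM of IARS1 was the lower.

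**Figure D4:**
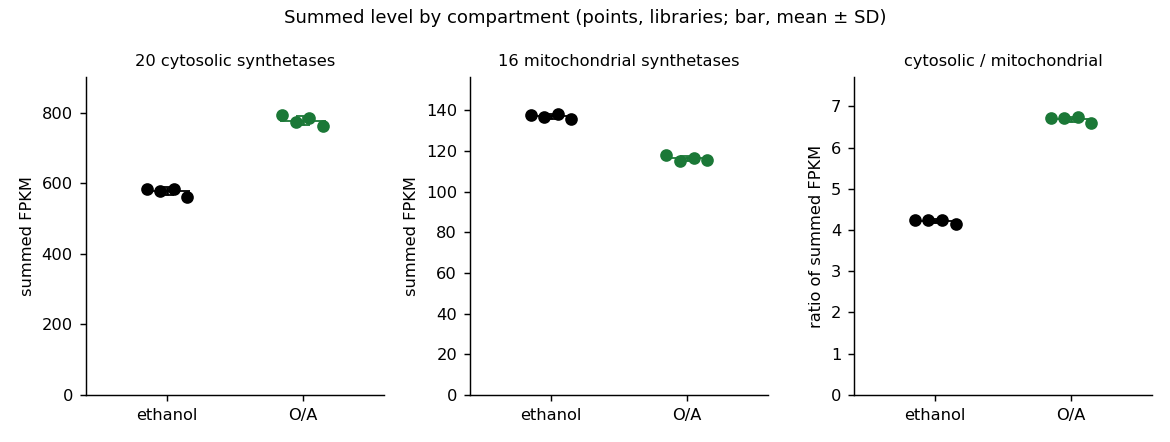
Summed FPKM of the 20 cytosolic synthetases, of the 16 mitochondrial synthetases and the ratio of both sums (y axes, from 0) are plotted for each library, with bars at the mean ± SD. The ratio lies at 4.14 to 4.25 in ethanol and at 6.60 to 6.73 in O/A.

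Few genes of the other steps of tRNA supply were upregulated. Of 20 genes for the transcription of tRNA genes by RNA polymerase III, 2 were upregulated and 7 downregulated, 10% and 35% against 15.8% and 18.9% of all genes tested. GTF3C4, a subunit of the initiation factor TFIIIC, fell by 0.98 (adjusted p = 1.62e-26), and the polymerase subunit POLR3B fell by 0.61. The polymerase subunit POLR3D (0.36) and GTF3C3 (0.30), also of TFIIIC, rose.

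Of 20 genes for tRNA processing and splicing, 1 was upregulated and 6 were downregulated. These are 5% and 30%, against 15.8% and 18.9% of all genes tested. POP1, a subunit of RNase P, which trims the 5′ end of tRNA precursors, fell by 1.31 (adjusted p = 5.4e-27), from 831 to 1075 counts in ethanol to 333 to 368 in O/A. ELAC1, an endonuclease for tRNA 3′ ends, fell by 1.29, and RPP25, another RNase P subunit, by 1.35, from 36 to 49 counts with ethanol to 10 to 21 with O/A. TSEN15, of the tRNA splicing endonuclease, rose by 0.57. Of 25 genes for modification of cytosolic tRNA, 1 was upregulated (ADAT3, 0.58, on 22 to 35 counts) and 7 were downregulated. These are 4% and 28%, against the same 15.8% and 18.9%. The falls were led by the dihydrouridine synthase DUS2 (-0.68), WDR4 (-0.47), a partner of a tRNA methyltransferase, and TRMT44 (-0.44), a methyltransferase.

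Most genes for the delivery of charged tRNA to the ribosome stayed within the fold change threshold. Of 8 genes tested for delivery and proofreading, 0 were upregulated and 1, AARSD1 (-0.49), an editing protein for mischarged alanine tRNA, was downregulated. These are 0% and 12.5%, against 15.8% and 18.9% of all genes tested. EEF1A1, the factor that carries charged tRNA, had a log2(FC) of 0.11. EEF1G, with 3 to 16 counts per library, was not tested. EEF1B2 and EEF1D, from the same list, had 4233 to 5125 and 4845 to 5984 counts, and the cause of the low EEF1G counts was not tested. In the selenocysteine branch, PSTK (0.61) and SEPSECS (0.46), which convert serine on its tRNA, and SECISBP2 (0.29), which reads the selenocysteine element, rose, while the elongation factor EEFSEC fell by 0.55.

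For mitochondrial tRNA, the 7 partners of charging and delivery had 0 calls, where 34.7% of all genes tested were called. They lay between -0.20 for TSFM and 0.21 for QRSL1. Of 13 genes for mitochondrial tRNA maturation, 2 were upregulated and 5 downregulated. The upregulated share of 15.4% is near the 15.8% of all genes tested, and the downregulated share was 38.5% against 18.9%. TRMT10C, a subunit of mitochondrial RNase P, fell by 1.08 (adjusted p = 1.99e-26), from 1072 to 1242 counts to 489 to 547, and TRMT5 and GTPBP3, which modify tRNA, fell by 0.62 and 0.61. MTO1, the partner of GTPBP3 in the same modification, rose by 0.47, and NSUN3, a tRNA methyltransferase, by 0.35. Of 3 genes for the sensing of uncharged tRNA, EIF2AK4, the kinase GCN2, had a log2(FC) of -0.08, its activator GCN1 had -0.20, and IMPACT, an inhibitor of GCN2, fell by 0.25.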

How the data were processed

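mRNA was measured in 8 libraries, 4 per condition, grouped by their labels. Per the labels and the submitters' processing notes, reads were aligned with HISAT2 2.0.1 to GRCh38.p13 and counted with HTSeq 0.6.1. The deposited counts are raw counts per gene. The authors derived the deposited FPKM from these counts, exonic size and library total, and recomputing them gave differences of at most 0.005. A further table with the log2 fold change and p-values of the authors' own DESeq2 comparison was not used. Strand setting and annotation release are not given in the sources used here.

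A gene was tested if 4 or more libraries held 10 or more of its counts, which 14893 did. The test was edgeR 4.0.16's robust quasi-likelihood test in R 4.3.3 after TMM scaling, adjusted by Benjamini-Hochberg over all of them. Alternatives used DESeq2 1.42.0, limma 3.58.1, other scalings, no filter, a replicate block, other thresholds and each library left out. Tested on simulated data, edgeR recovered 82 of 100 genes changed by 0.5 and 85 of 100 changed by 1 on the log2 scale, with 7 false calls among 14728 genes. The simulation changed only 200 genes, as many up as down, whereas 34.7% of all genes tested were called in the data. These figures may therefore not hold for the data. Totals of 17210404 to 20999927 counts leave genes near 100 counts imprecise.

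The genes and lists were chosen with earlier results of these data known. Described in full are the largest changes in each direction per subgroup and genes that go against their subgroup, and from each other list at most 3 called genes in each direction. Pseudogenes named after members held at most 0.689% of the parent's counts. RefSeq windows are of GRCh38.p14, and all other coordinates are those of the authors' table.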

Additional observations from a re-analysis of the deposited data

Results flagged for a closer look

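In 8 of the 80 groups of 4 libraries formed by 40 genes and 2 conditions, 1 library stood far from the other 3, where chance gives 4 (about 1 in 20 groups). All values here are counts scaled to a common library size with TMM factors (CPM). In ethanol replicate 1, AARS1 was at 149 against 139 to 141 in the other ethanol libraries, and NARS1 at 266 against 255 to 257. In ethanol replicate 3, MARS1 was at 142 against about 135, and LARS2 at 61.6 against 59.1 to 59.2. AARS2 was at 23.9 in ethanol replicate 2 against 25.5 to 25.7, and TARS1 at 298 in ethanol replicate 4 against 312 to 313. In O/A, NARS1 was at 388 in replicate 4 against 397 to 399, and NARS2 at 17.8 in replicate 2, below the other 3 libraries, which reached 20.4. Apart from NARS2, which was not called, each of these genes had no overlap between the conditions with that library included.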

How the results depend on the processing

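Over 14 alternatives, 547 of 560 log2(FC) values of the 40 genes kept their direction and their call (adjusted p and fold change combined), 2 lost the call (LARS2) and 11 changed sign, all of them in genes that were not called. The adjusted p-value alone also crossed 0.05 in genes within the fold change threshold, such as HARS1 (0.0137, or 0.061 under DESeq2) and EEF1E1 (0.0266, or 0.0511). KARS1 went to -0.066 under quantile normalization, -0.001 without a filter, -0.041 on log2(FPKM + 1), -0.0032 without ethanol replicate 4 and -0.0092 when O/A replicate 1 was left out (range over the 8 libraries left out, -0.0092 to 0.017). SARS2 went to -0.02 on log2(FPKM + 1), -0.06 without ethanol replicate 2, -0.03 without O/A replicate 2 and -0.057 without O/A replicate 3 (range -0.06 to 0.154). YARS2 went to -0.034 on log2(FPKM + 1) and -0.011 without O/A replicate 2 (range -0.011 to 0.027). No direction was given for these 3 genes, and the cause was not tested.

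The fold change threshold moved the counts. With the adjusted p-value alone, 16 cytosolic (12 up, 4 down) and 10 mitochondrial synthetases (0 up, 10 down) were called, and 7999 genes in all (3868 up, 4131 down). Above a log2(FC) of 1 the counts were 4, 0 and 797 (382 up, 415 down). With each library left out in turn, 12 cytosolic synthetases were called each time, 5 to 6 mitochondrial ones and 5027 to 5152 of all genes. On log2(FPKM + 1), 1514 genes were up and 2409 down, with the median of all genes at -0.028, and the cytosolic median was 0.53. Under quantile normalization it was 0.49.

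The main test did not pair same-numbered libraries, and whether they came from the same experiment is not given in the labels. Their deviations from the group means correlated at -0.023 to 0.067. Of the 4 ethanol libraries, 2 correlated best with the O/A library of their own number. With the replicate number as a block, 12 cytosolic and 6 mitochondrial synthetases and 5160 of all genes were called, and the block changed no call among the 40 genes. Precision was limited by low counts in SARS2, VARS2 and PARS2. SARS2 and VARS2 overlap other genes on the same strand by 15360 and 12255 bases. Other members do so too, among them MARS2, by 3027 bases, its whole length in the authors' table. EEF1E1 does so by 29171 bases, EARS2 by 1242 (with GGA2) and HARS2 by 626 (with ZMAT2). The part of these overlaps in the counts was not tested.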
